A study of Homo sapiens with 2 samples.

Results

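The 53 genes described here encode the Eph receptors and their ephrin ligands, the semaphorins of classes 3 to 7, and the plexins and neuropilins that receive semaphorin signals. They were taken from the deposited table by biotype and symbol, as protein-coding rows whose symbols name a member of these families, and make up 53 of 58735 genes. They comprise 14 Eph receptors, 8 ephrins, 20 semaphorins, 9 plexins and 2 neuropilins.

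RNA was sequenced from A2780, an established human ovarian cancer cell line, in 2 libraries. The shJAM3 library came from cells labelled as a JAM3 knockdown, which the design text describes as stable. The shControl library came from cells whose genotype is labelled wild type and which that text calls an empty-vector control. The titles carry the prefix sh while the design text speaks of siRNA. The sequence of the construct, and whether the knockdown cells were 1 clone or a pool, are not given in the sources used here. JAM3 encodes junctional adhesion molecule C, a protein of cell-cell contacts, and the series title places its loss in ovarian carcinoma beside PI3K/AKT signalling.

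Eph receptors are receptor tyrosine kinases bound by ephrins on the surface of neighbouring cells, and ephrins can signal back into the cell that carries them. Class A ephrins are held in the membrane by a lipid anchor and class B ephrins span it. Semaphorins are secreted or membrane-bound ligands that act mainly through plexins, which switch off Ras-family and Rap GTPases, and most secreted class 3 semaphorins need a neuropilin as co-receptor. All these families are best known as guidance cues for growing axons, and they also act on adhesion, migration and vessel growth in epithelia and tumours.

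The shJAM3 library held 16455079 fragments assigned to genes and the shControl library 15570262. Levels are FPKM, fragments per kilobase of exon length scaled to library size. The length counts all annotated exons of a gene, used or not, so levels of different genes can be compared only roughly. Each group held 1 library, so the conditions could not be tested, no p-value is given, and every difference stated is one between these libraries without a replicate check. Ratios of FPKM, shJAM3 over shControl, carry exact 95% intervals in brackets that cover counting error only. JAM3 itself had 14 fragments in shJAM3 and 18 in shControl (0.154 FPKM against 0.215 FPKM), a ratio of 0.716 (0.330 to 1.52), which at this depth did not separate the libraries in either direction. The design text states a reduction of over 70%, a ratio below 0.3, and the bound of the interval nearest to that was 0.330. NCAPD3 on the opposite strand shares 8.53% of the exon bases of JAM3, and no strand-marking step is described in the labels' protocols. Of 11 ovarian carcinoma and epithelial markers, 5 averaged at least 1 FPKM, with intervals below 1 for MSLN (ratio 0.641) and KRT7 (0.666) and above 1 for FOLR1 (1.20), KRT18 (1.14) and KRT8 (1.11). Of the other 6, PAX8 had a ratio of 0.471 (0.344 to 0.641) and MUC16 one of 2.25 (1.98 to 2.57), intervals of EPCAM, CDH1 and KRT19 spanned 1, and WT1 had 0 fragments in shJAM3 and 1 in shControl. Of 10 markers of blood, endothelial and fibroblast cells none averaged 1 FPKM, their summed level was 0.469 FPKM in shJAM3 and 0.784 FPKM in shControl, and PTPRC and CD34 were at 0 in both libraries. In bulk RNA of this kind, fewer cells that express a gene and less of its RNA per cell cannot be told apart.

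Of the 53 genes, 48 had at least 1 fragment and 25 averaged at least 1 FPKM over both libraries, the level taken as measured. The measured genes were 3 Eph receptors, 7 ephrins, 9 semaphorins and 6 plexins, and neither neuropilin reached it. Levels were steeply graded, with 14 genes at a mean of at least 5 FPKM, 8 at 20 FPKM or more and 2, EPHA2 and PLXNB2, at 50 FPKM or more. EPHA2 ranked at the percentile 98.2 of all protein-coding genes by mean FPKM and PLXNB2 at 97.3. The cells thus carried RNA for a few receptors at high levels and little or none for many of their relatives.

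**Figure D1:**
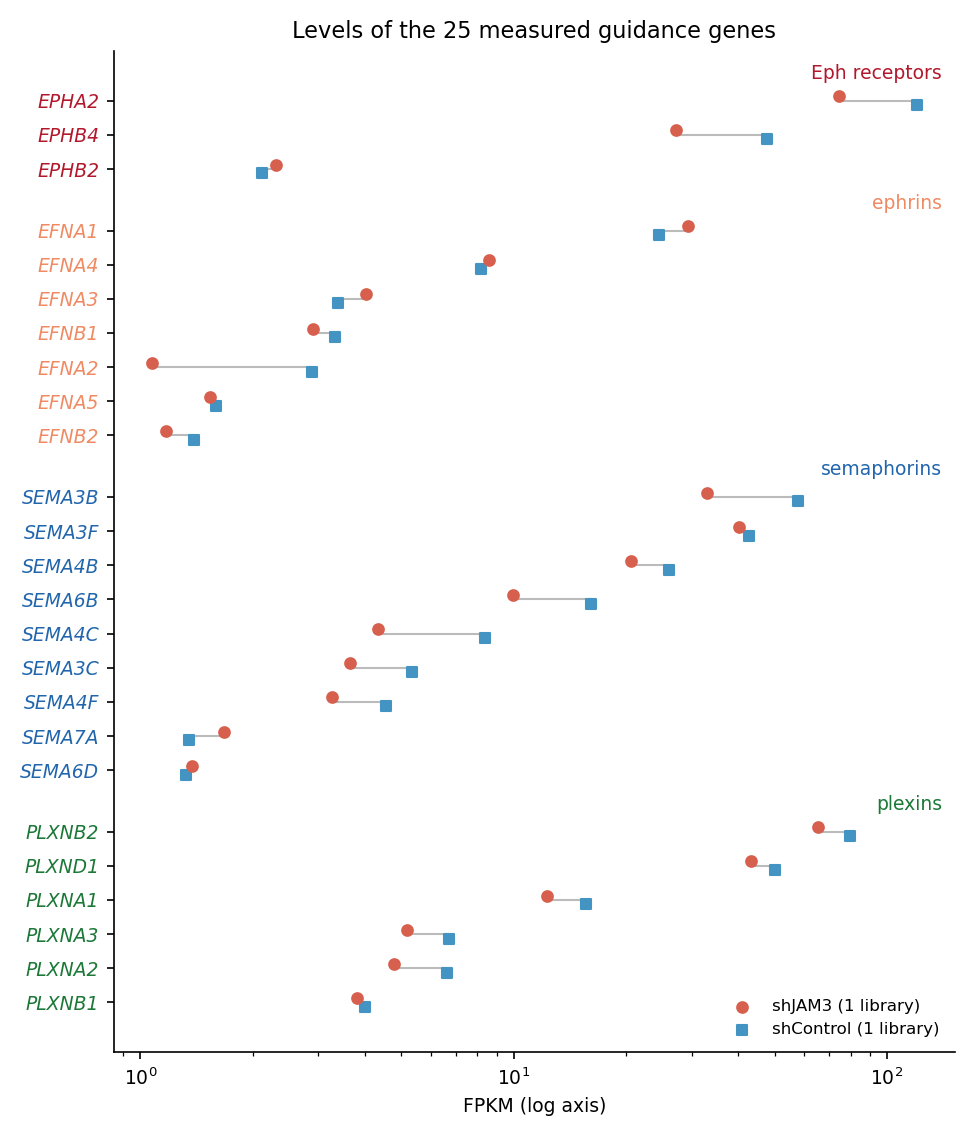
FPKM of the 25 measured guidance genes (log axis) in the shJAM3 library (circles) and the shControl library (squares), with genes grouped by family and ordered by mean level. EPHA2 and PLXNB2 are the highest of their families, and 19 of the 25 circles lie left of their squares.

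More of the measured genes were lower than higher in shJAM3: 19 were lower and 6 higher. Over all 10499 measured protein-coding genes 5316 were lower and 5182 higher. At least 1.5-fold lower on the log2(FPKM + 1) scale were 6 of 25 genes (24%), namely EFNA2, SEMA4C, SEMA3B, EPHB4, EPHA2 and SEMA6B, against 9.30% of the 10499 measured protein-coding genes. None was 1.5-fold higher, against 5.12% of all. At 2-fold none was lower and none higher, against 1.41% and 0.391% of all. The counting interval lay below 1 for 15 of 25 genes (60%), against 36.8% of all, and above 1 for 1 gene, EFNA1 (4%), against 34.5% of all. The median log2 ratio was -0.28 over the 25 genes and -0.01 over all measured protein-coding genes. The families differed in these values, with median log2 ratios of -0.68 for Eph receptors, -0.04 for ephrins, -0.38 for semaphorins and -0.30 for plexins. These genes are rich in G and C, and over all genes the ratio followed GC content, so values centred on genes of like GC content are given as well. So centred, the median of the 25 genes was -0.12, and 15 were lower and 10 higher, against 5240 lower and 5240 higher over all. The family medians were then -0.37 for Eph receptors, 0.075 for ephrins, -0.14 for semaphorins and 0.0026 for plexins. On that scale SEMA4C and SEMA3C were at least 1.5-fold lower (8%), against 5.26% of all, and none was 1.5-fold higher, against 3.44% of all.

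Promoter windows are shown for EPHA2, EPHB4 and SEMA4C, which were among the 6 lower genes, and for EFNA1, the 1 measured gene that was higher beyond counting error. Each of the 4 has a single start in the RefSeq table. The windows are the 250 bases before that start on the gene's own strand, from RefSeq on GRCh38.p14. They lie at chr1:16156070-16156319 on the minus strand for EPHA2, chr7:100827524-100827773 on the minus strand for EPHB4, chr2:96870081-96870330 on the minus strand for SEMA4C and chr1:155127626-155127875 on the plus strand for EFNA1. GENCODE 29, whose gene models underlie the FPKM, places other starts for the same genes: all 250 bases of the SEMA4C and EFNA1 windows lie inside the annotated gene, downstream of its outermost start, as do 18 bases of the EPHA2 window and 0 of the EPHB4 window. Capitals mark the GC box GGGCGG, bound by SP-family factors, in either direction, and the palindrome TGACGTCA, the full cAMP response element bound by CREB-family factors.
EPHA2: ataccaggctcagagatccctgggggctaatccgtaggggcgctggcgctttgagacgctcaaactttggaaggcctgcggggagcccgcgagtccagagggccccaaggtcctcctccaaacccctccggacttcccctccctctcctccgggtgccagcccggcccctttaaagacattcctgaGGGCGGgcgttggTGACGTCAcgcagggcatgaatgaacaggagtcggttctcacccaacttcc
EPHB4: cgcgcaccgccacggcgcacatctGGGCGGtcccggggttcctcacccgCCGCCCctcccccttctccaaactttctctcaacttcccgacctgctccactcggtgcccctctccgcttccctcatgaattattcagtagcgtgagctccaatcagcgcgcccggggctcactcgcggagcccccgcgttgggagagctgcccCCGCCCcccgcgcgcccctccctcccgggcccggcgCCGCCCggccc
SEMA4C: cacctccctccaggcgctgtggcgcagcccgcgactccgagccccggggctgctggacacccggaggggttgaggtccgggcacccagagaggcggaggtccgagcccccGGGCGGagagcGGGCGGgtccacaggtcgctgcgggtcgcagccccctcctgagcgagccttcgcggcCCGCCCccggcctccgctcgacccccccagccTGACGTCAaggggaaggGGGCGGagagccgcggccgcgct
EFNA1: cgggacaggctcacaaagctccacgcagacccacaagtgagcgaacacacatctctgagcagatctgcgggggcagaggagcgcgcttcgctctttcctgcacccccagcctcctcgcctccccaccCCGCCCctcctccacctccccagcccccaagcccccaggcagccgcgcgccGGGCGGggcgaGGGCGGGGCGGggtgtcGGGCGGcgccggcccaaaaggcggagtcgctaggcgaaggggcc
The windows hold 15 CpG in EPHA2, 29 in EPHB4, 30 in SEMA4C and 24 in EFNA1. The median over all measured protein-coding genes is 21, so the EPHA2 window lies below it and the other windows above it. The GC box occurs 1 time in EPHA2, 4 times in EPHB4, 4 times in SEMA4C and 5 times in EFNA1, with overlapping matches counted. TGACGTCA occurs 1 time in EPHA2, with its first base 51 bases before the start, and 1 time in SEMA4C, 40 bases before it.

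RefSeq windows were found for 47 of the 53 genes, 24 of them measured. All 24 measured genes held a GC box in at least 1 window, as did 19 of the other 23, 77.3% of 8385 measured protein-coding genes with a window and 63.2% of all 14894. The median number of CpG per window was 25 in the measured guidance genes, 15 in the other guidance genes and 21 in all measured protein-coding genes. TGACGTCA stood in windows of EPHA2, SEMA3B and SEMA4C, 3 of 24 measured genes, in 0 of the other 23, in 3.73% of measured genes and in 2.72% of all genes. These 3 are among the 5 lower genes that have a window, but the letters to search were chosen after the sequences had been seen. Over all measured protein-coding genes, the 313 with TGACGTCA had a median log2 ratio of 0.02 and 6.07% were 1.5-fold lower, beside 0.00 and 8.59% for the 8072 without it. The E-box CACGTG stood in 1 of 24 measured guidance genes, 3 of the other 23 and 11.7% of measured genes, and TATAAA in 1 of 24, 2 of 23 and 7.30% of measured genes. All motifs were searched on both strands, and a match is a run of letters and not a shown binding site.

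Among the Eph receptors, the 2 abundant ones were lower in shJAM3 and the third was not. EPHA2, a receptor for class A ephrins that is often abundant in carcinoma cells, lies on chromosome 1 (16124337 to 16156087, minus strand, GRCh38). It was at 74.3 FPKM in shJAM3 and 120 FPKM in shControl, from 5157 and 7671 fragments, a ratio of 0.619 (0.598 to 0.642). EPHB4, the receptor for ephrin-B2 that helps separate arteries from veins, lies on chromosome 7 (100802565 to 100827521, minus strand). It was at 27.3 FPKM in shJAM3 and 47.8 FPKM in shControl, a ratio of 0.572 (0.546 to 0.599). EPHB2, a receptor for class B ephrins, was at 2.30 FPKM in shJAM3 and 2.12 FPKM in shControl, a ratio of 1.09 (0.952 to 1.25), so the libraries did not differ in it beyond counting error. EPHA2 gave 71.1% of the summed Eph receptor FPKM in shJAM3 and 70.4% in shControl, and EPHB4 gave 26.1% in shJAM3 and 28.0% in shControl. The sum over all 14 receptors was 104.5 FPKM in shJAM3 and 170.6 FPKM in shControl, a ratio of 0.613, while EPHA2 and EPHB4 kept nearly the same shares of it. After centring on GC content the log2 ratios were -0.37 for EPHA2, -0.47 for EPHB4 and 0.24 for EPHB2.

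The ephrins were on balance nearly level between the libraries, with 3 of 7 measured genes higher in shJAM3 and 4 lower. EFNA1, the main ephrin partner of EPHA2, was at 29.3 FPKM in shJAM3 and 24.5 FPKM in shControl, from 1239 and 956 fragments, a ratio of 1.19 (1.10 to 1.30). It is the 1 measured guidance gene whose interval lay above 1, and its log2 ratio was 0.25, or 0.40 after centring on GC content. EFNA4 was at 8.59 FPKM in shJAM3 and 8.20 FPKM in shControl, with an interval of 0.843 to 1.31. EFNA3 was at 4.02 FPKM in shJAM3 and 3.38 FPKM in shControl, with an interval of 0.909 to 1.56. For both the interval spans 1, and both share exon bases with AL691442.1 on the same strand, 15.0% for EFNA4 and 44.7% for EFNA3, so their counts are uncertain. EFNA1, EFNA3 and EFNA4 lie together within 71.1 kb of chromosome 1 (155063731 to 155134857) and all 3 had log2 ratios above 0 (0.25, 0.20 and 0.06). Of 12 other measured protein-coding genes in that stretch and within 100 kb of it, 4 were higher and 8 lower, with a median log2 ratio of -0.11. EFNA5 was at 1.53 FPKM in shJAM3 and 1.60 FPKM in shControl, a ratio of 0.961 (0.757 to 1.22).

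EFNA2, another class A ephrin, had the lowest log2 ratio of the 25 genes (-0.90), on few fragments. It had 17 fragments (1.07 FPKM) in shJAM3 and 42 (2.88 FPKM) in shControl, a ratio of 0.373 (0.199 to 0.669). Its transcripts have the highest GC content of the 25 genes, 71.1%, and after centring its log2 ratio was -0.40. The class B ephrins did not differ beyond counting error. EFNB1 was at 2.89 FPKM in shJAM3 and 3.32 FPKM in shControl, a ratio of 0.872 (0.698 to 1.09). EFNB2, the partner of EPHB4, was at 1.17 FPKM in shJAM3 and 1.39 FPKM in shControl, a ratio of 0.844 (0.635 to 1.12), and shares 26.2% of its exon bases with AL138689.2 on the opposite strand. The ephrins summed to 48.5 FPKM in shJAM3 and 45.4 FPKM in shControl, of which EFNA1 gave 60.3% in shJAM3 and 54.0% in shControl. Summed Eph receptor FPKM was thus 2.15 times summed ephrin FPKM in shJAM3 and 3.76 times in shControl. For the pair EPHA2 and EFNA1 the quotient of receptor to ligand FPKM was 2.54 in shJAM3 and 4.90 in shControl, and for EPHB4 and EFNB2 it was 23.3 in shJAM3 and 34.4 in shControl. In these sums and pairs FPKM of the receptors thus exceeded FPKM of their ligands in both libraries, by less in shJAM3. The quotients are not centred on GC content and carry no counting interval.

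**Figure D2:**
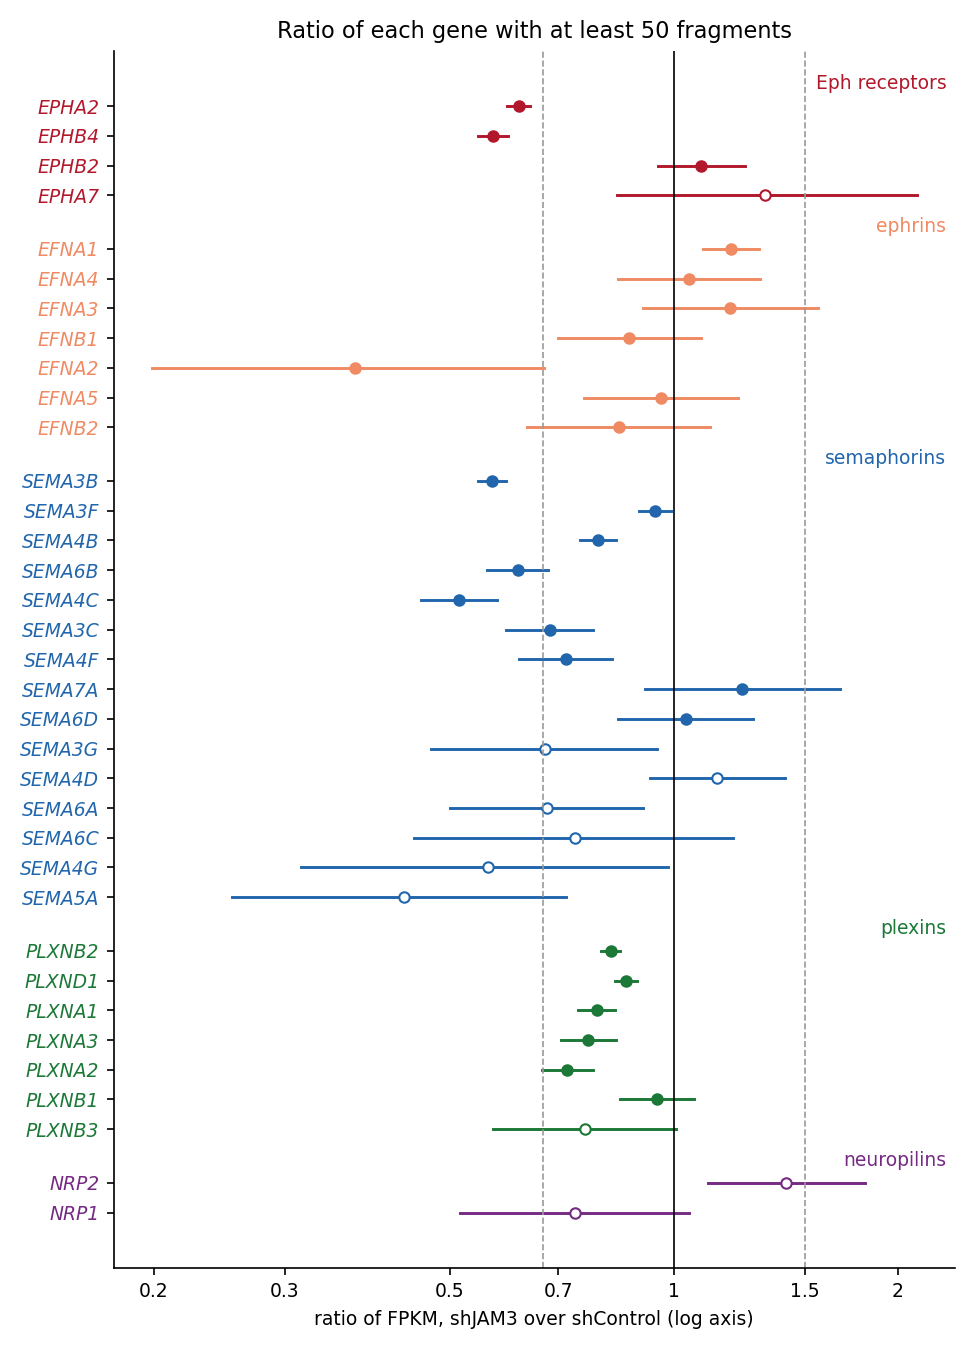
Ratio of FPKM, shJAM3 over shControl (log axis), for each of the 35 guidance genes with at least 50 fragments over both libraries, with lines for the 95% counting interval; filled points are measured genes and open points lie below 1 FPKM on average. Solid and dashed lines mark a ratio of 1 and 1.5-fold in either direction; EPHA2, EPHB4, SEMA3B and SEMA4C have their whole interval below the lower dashed line.

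Of the semaphorins, 7 of 9 measured genes had intervals below 1 (77.8%), against 36.8% of all measured protein-coding genes. Members of the same class differed among themselves. The class 3 semaphorins are secreted. SEMA3B and SEMA3F are neighbours on chromosome 3 within 122.5 kb (50155045 to 50277546), in a region known for loss in lung cancer. SEMA3B was at 33.0 FPKM in shJAM3 and 57.8 FPKM in shControl, from 3171 and 5123 fragments, a ratio of 0.570 (0.545 to 0.596). Its log2 ratio was -0.79, and -0.29 after centring on GC content, which is no longer 1.5-fold. SEMA3F, which signals through neuropilin-2, was at 40.2 FPKM in shJAM3 and 42.6 FPKM in shControl, a ratio of 0.944 (0.899 to 0.992), and its log2 ratio was -0.08 before centring and 0.23 after. SEMA3B was thus the higher of the neighbours in shControl and SEMA3F in shJAM3, with SEMA3F at 1.22 times SEMA3B in shJAM3 and 0.737 times in shControl. Of 13 other measured genes within 100 kb, 5 were lower and 8 higher, with a median log2 ratio of 0.06. SEMA3C, the class 3 member best known from the outflow tract of the heart, was at 3.64 FPKM in shJAM3 and 5.35 FPKM in shControl, a ratio of 0.681 (0.595 to 0.779). Its transcripts are poor in GC (43.3%), unlike those of most other guidance genes, and after centring its log2 ratio was -0.64, beside -0.45 before.

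The class 4 and class 6 semaphorins span the membrane. SEMA4C, a ligand of plexin-B2, was at 4.32 FPKM in shJAM3 and 8.41 FPKM in shControl, from 444 and 795 fragments, a ratio of 0.514 (0.457 to 0.578). Its log2 ratio was -0.82, and -0.60 after centring on GC content. SEMA4B was at 20.7 FPKM in shJAM3 and 26.1 FPKM in shControl, a ratio of 0.791 (0.749 to 0.836), and SEMA4F at 3.25 FPKM in shJAM3 and 4.55 FPKM in shControl, a ratio of 0.716 (0.619 to 0.827). After centring the log2 ratio of SEMA4B was -0.01, beside -0.32 before, and that of SEMA4F was -0.23, beside -0.38. SEMA6B was at 9.96 FPKM in shJAM3 and 16.1 FPKM in shControl, a ratio of 0.617 (0.561 to 0.678). Its transcripts have a GC content of 66.3%, and after centring its log2 ratio was -0.14, beside -0.65 before. SEMA6D, a ligand of plexin-A1, was at 1.37 FPKM in shJAM3 and 1.32 FPKM in shControl, a ratio of 1.04 (0.842 to 1.28). SEMA7A, which has a lipid anchor and binds plexin-C1 and beta-1 integrins, was at 1.67 FPKM in shJAM3 and 1.35 FPKM in shControl, a ratio of 1.24 (0.915 to 1.68). The least expressed of the 9, SEMA6D and SEMA7A, were thus the pair that were not lower, with both intervals spanning 1.

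All 6 measured plexins were lower in shJAM3, by less than 1.5-fold, with ratios between 0.719 and 0.949. PLXNB2, the receptor of SEMA4C, was at 65.3 FPKM in shJAM3 and 79.4 FPKM in shControl, from 7906 and 8854 fragments, a ratio of 0.822 (0.798 to 0.848). PLXND1, a receptor of SEMA3E known from blood vessels, was at 43.1 FPKM in shJAM3 and 50.0 FPKM in shControl, a ratio of 0.863 (0.835 to 0.892). These gave 48.3% and 31.9% of the summed plexin FPKM in shJAM3 and 48.6% and 30.6% in shControl. The class A plexins pair with neuropilins in receptors for class 3 semaphorins. PLXNA1 was at 12.3 FPKM in shJAM3 and 15.6 FPKM in shControl, a ratio of 0.788 (0.744 to 0.833). PLXNA3 was at 5.17 FPKM in shJAM3 and 6.73 FPKM in shControl, a ratio of 0.768 (0.706 to 0.836). PLXNA2 was at 4.78 FPKM in shJAM3 and 6.65 FPKM in shControl, a ratio of 0.719 (0.664 to 0.779). All 3 class A members were thus lower beyond counting error, as were 36.8% of all measured protein-coding genes. After centring on GC content the log2 ratio of PLXNA1 was -0.01, beside -0.32 before. That of PLXNA3 was -0.12, beside -0.33, and that of PLXNA2 was -0.32, beside -0.40. PLXNB1, the receptor of SEMA4D, was at 3.80 FPKM in shJAM3 and 4.01 FPKM in shControl, a ratio of 0.949 (0.846 to 1.06), and was the 1 measured plexin whose interval spanned 1. After centring on GC content the median log2 ratio of the 6 plexins was 0.0026, with 3 lower and 3 higher. Plexin FPKM summed to 135 in shJAM3 and 164 in shControl, and semaphorin FPKM to 121 in shJAM3 and 168 in shControl, so the quotient of plexins to semaphorins was 1.12 in shJAM3 and 0.976 in shControl. For PLXNB2 and SEMA4C the quotient was 15.1 in shJAM3 and 9.45 in shControl.

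The neuropilins, co-receptors for class 3 semaphorins and for VEGF, lay below 1 FPKM in both libraries. NRP2 had 175 fragments in shJAM3 and 114 in shControl (0.755 FPKM against 0.534 FPKM), a ratio of 1.41 (1.11 to 1.81), and was the 1 gene below the filter whose interval lay above 1. NRP1 had 60 fragments in shJAM3 and 75 in shControl (0.312 FPKM against 0.424 FPKM), a ratio of 0.737 (0.516 to 1.05). RNA for the secreted ligands SEMA3B and SEMA3F thus stood far above RNA for either neuropilin.

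Of the 28 genes below the filter, 11 had at least 20 fragments over both libraries, 12 had between 1 and 19, and 5 had none. Of the 23 with a fragment, intervals lay below 1 for 7, against 9.83% of the 4803 protein-coding genes below 1 FPKM with a fragment, and above 1 for 1 (NRP2), against 11.1%. SEMA5A, a transmembrane semaphorin with thrombospondin repeats, had 24 fragments in shJAM3 and 51 in shControl, a ratio of 0.433 (0.255 to 0.717). SEMA6A had 80 fragments in shJAM3 and 109 in shControl, a ratio of 0.676 (0.500 to 0.910), and SEMA3G 59 in shJAM3 and 81 in shControl, a ratio of 0.671 (0.471 to 0.950). SEMA4G had 22 fragments in shJAM3 and 36 in shControl, a ratio of 0.563 (0.315 to 0.983), and shares 27.4% of its exon bases with other genes. The remaining 3 rest on very few fragments. SEMA4A had 1 fragment in shJAM3 and 10 in shControl, EPHA8 had 2 in shJAM3 and 10 in shControl, and EFNB3 had 0 in shJAM3 and 7 in shControl. For EFNB3 the level in shControl, 0.141 FPKM, was 2.53 times the level that 3 fragments, the limit taken for a count of 0, would give in shJAM3. That quotient takes the 7 shControl fragments as exact, and the counting interval of EFNB3 reached a ratio of 0.639.

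SEMA4D, the ligand of plexin-B1, had 210 fragments in shJAM3 and 169 in shControl, a ratio of 1.14 (0.930 to 1.41). PLXNB3, a receptor of SEMA5A, had 94 fragments in shJAM3 and 114 in shControl, a ratio of 0.759 (0.572 to 1.01), and shares 20.4% of its exon bases with SRPK3. EPHA7 had 49 fragments in shJAM3 and 34 in shControl, and SEMA6C had 32 in shJAM3 and 40 in shControl. SEMA3A, which collapses axonal growth cones, had 19 fragments in shJAM3 and 20 in shControl. None of these 5 differed beyond counting error. EPHA5 had 9 fragments in shJAM3 and 7 in shControl, and PLXNC1, the receptor of SEMA7A, had 7 in shJAM3 and 4 in shControl. SEMA5B had 2 fragments in shJAM3 and 7 in shControl, and EPHA1 had 1 in shJAM3 and 4 in shControl. EPHB1, EPHB3, EPHB6, EPHA4 and EPHA10 had 0 to 3 fragments in either library. EPHA3, EPHA6, SEMA3D, SEMA3E and PLXNA4 had none, which with 3 fragments as the limit allows levels of up to 0.0110 to 0.0310 FPKM, depending on gene and library. PLXND1 was therefore abundant while SEMA3E, 1 of its ligands, was not detected, and SEMA7A was detected with almost no RNA for PLXNC1.

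The log2 ratio of shJAM3 over shControl followed the GC content of transcripts over the whole table, with r = -0.51 across 10496 measured protein-coding genes, which are not independent replicates. The measured guidance genes had a median GC content of 60.5%, against 49.9% for all. Across the 25 genes themselves Pearson's r was -0.36 and Spearman's rank correlation -0.31, as a description of genes that share both libraries. The 21 genes at or above the median GC content of all had a median log2 ratio of -0.32, and 16 of them were lower, while all genes in that upper GC range had a median of -0.19. The 4 below it had a median of -0.09, and 3 were lower, while all genes in the lower range had a median of 0.16. Centring changed the direction of 6 genes. The log2 ratios of PLXNB1 (0.25), SEMA3F (0.23), PLXNB2 (0.10), EFNB1 (0.07) and PLXND1 (0.02) were then above 0, and that of SEMA6D (-0.13) was below 0. Of the 6 genes that were 1.5-fold lower before centring, only SEMA4C (-0.60) was so after it. EPHB4 (-0.47), EFNA2 (-0.40), EPHA2 (-0.37), SEMA3B (-0.29) and SEMA6B (-0.14) were not. The part of GC content in any single difference was not tested. The correlation of the log2 ratio with log2 mean FPKM across the 25 genes was -0.33 and with exon length -0.03.

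**Figure D3:**
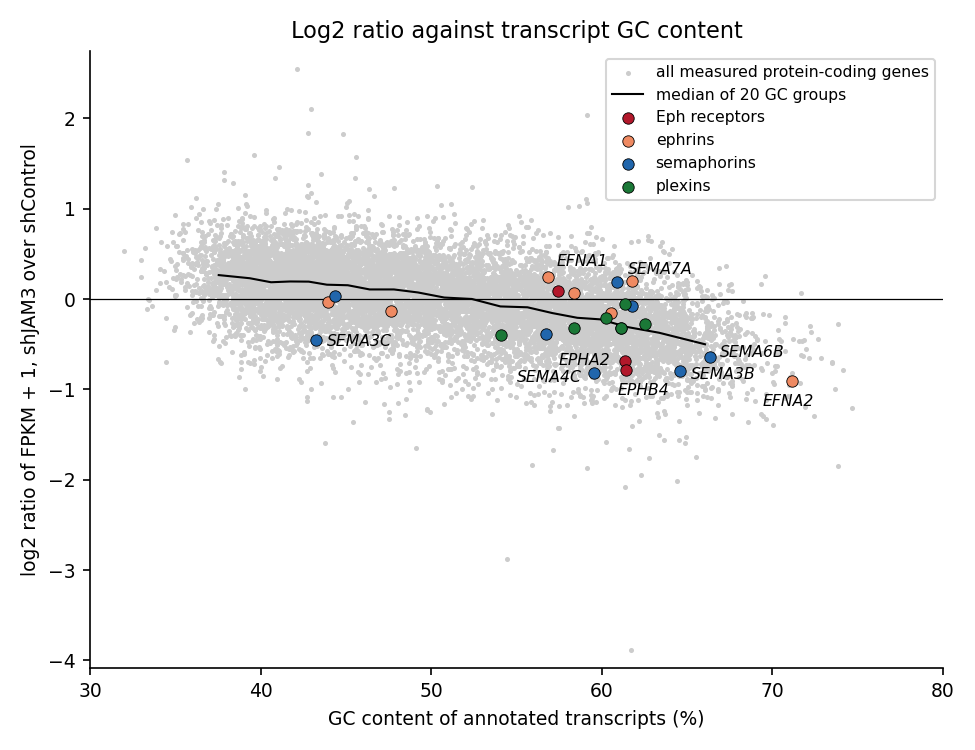
Log2 ratio of FPKM + 1, shJAM3 over shControl, against the GC content of annotated transcripts (%) for measured protein-coding genes (grey), with the median in 20 equal groups by GC content (line) and the guidance genes in colour by family. The line slopes down across the range, most guidance genes lie at its GC-rich end, and SEMA4C, EPHA2, EPHB4 and SEMA3C lie below it while EFNA1 and SEMA7A lie above it.

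Genes that act with these families were taken from lists of partners. The counts of each list below are set against all measured protein-coding genes. Of these, 9.30% were at least 1.5-fold lower and 5.12% higher, and after centring on GC content 5.26% were lower and 3.44% higher. Of 28 listed cytoplasmic partners of Eph receptors and ephrins 20 were measured, with 5 at least 1.5-fold lower, 1 higher and a median log2 ratio of -0.12. After centring on GC content 0 of the 20 were 1.5-fold lower and 1 was higher. INPPL1 (SHIP2), a lipid phosphatase that binds EPHA2, was at 68.5 FPKM in shJAM3 and 112 FPKM in shControl, and GRB7, an adaptor, at 4.35 FPKM in shJAM3 and 7.98 FPKM in shControl. ARHGEF5, a guanine nucleotide exchange factor, was at 5.17 FPKM in shJAM3 and 8.64 FPKM in shControl. PTPN11 (SHP2), a tyrosine phosphatase, was the 1 higher gene before centring, at 31.3 FPKM in shJAM3 and 19.7 FPKM in shControl. Its log2 ratio was 0.65, and 0.54 after centring, which is no longer 1.5-fold. The 1 higher gene after centring was ARHGEF19, with a log2 ratio of 0.61, beside 0.30 before.

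Of 34 partners of plexins and neuropilins 28 were measured, with 3 lower by 1.5-fold, none higher and a median log2 ratio of -0.09. The 3 were GIPC1, LIMK1 and ARHGAP35. After centring 3 were lower, LIMK1 (-0.597), GSK3B (-0.640) and RRAS2 (-0.586), and 1 higher, RRAS (0.646). GIPC1 (-0.578) and ARHGAP35 (-0.584) then fell just short of 1.5-fold. GIPC1, which binds the tail of neuropilin-1, was at 34.6 FPKM in shJAM3 and 68.0 FPKM in shControl. LIMK1, the kinase that phosphorylates cofilin, was at 4.51 FPKM in shJAM3 and 8.73 FPKM in shControl, and ARHGAP35, a GTPase-activating protein, at 11.8 FPKM in shJAM3 and 19.3 FPKM in shControl. GSK3B was at 19.3 FPKM in shJAM3 and 27.4 FPKM in shControl, a log2 ratio of -0.48.

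Of 19 co-receptors and other ligands 10 were measured, with 2 lower, 1 higher and a median of -0.11, and after centring 2 lower and none higher. VEGFA, a ligand of both neuropilins, was at 10.2 FPKM in shJAM3 and 22.1 FPKM in shControl, a ratio of 0.461 (0.439 to 0.484). VEGFC was at 1.07 FPKM in shJAM3 and 2.29 FPKM in shControl, a ratio of 0.466 (0.315 to 0.680). On the log2(FPKM + 1) scale VEGFA was past 2-fold and VEGFC was not. MET, a receptor kinase that associates with B-class plexins, was at 11.4 FPKM in shJAM3 and 6.76 FPKM in shControl, and ITGB1, the integrin chain used by SEMA7A, at 108 FPKM in shJAM3 and 74.0 FPKM in shControl, a log2 ratio of 0.54. KDR and FLT1, receptors for VEGF, had no fragment in either library. FLT4 of the same list had 5 fragments in shJAM3 and 4 in shControl. RNA for VEGF ligands was thus found without detected RNA for KDR and FLT1 and with almost none for FLT4.

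Of 11 proteases that cut these proteins 9 were measured, with 1 lower, none higher and a median of -0.10. After centring 1 was lower, a different gene, and none higher. FURIN, which cuts class 3 semaphorins, was the 1 lower before centring, at 72.5 FPKM in shJAM3 and 115 FPKM in shControl. Its log2 ratio was -0.66, and -0.35 after centring. ADAMTS1, at 8.60 FPKM in shJAM3 and 12.5 FPKM in shControl, was the 1 lower after centring. The log2 ratio of ADAMTS1 was -0.49, and -0.59 after centring. ADAM10, which sheds ephrins, was at 5.97 FPKM in shJAM3 and 4.61 FPKM in shControl. NCSTN, a subunit of gamma-secretase, had a log2 ratio of 0.19. Of 29 genes of the netrin, Slit and repulsive guidance molecule families 9 were measured, with 2 lower, none higher and a median of -0.31, and after centring 1 lower and none higher. NTN4, a netrin of basement membranes, was at 5.68 FPKM in shJAM3 and 15.8 FPKM in shControl, a ratio of 0.361 (0.320 to 0.406), and UNC5B, a netrin receptor, at 3.66 FPKM in shJAM3 and 6.56 FPKM in shControl. FLRT3, a ligand of UNC5B, was at 3.00 FPKM in shJAM3 and 1.91 FPKM in shControl, and NTN3 had a log2 ratio of -0.46. The counts of all these lists stand beside 9.30% of all measured protein-coding genes lower and 5.12% higher by 1.5-fold. The centred counts stand beside 5.26% lower and 3.44% higher. After centring on GC content the medians were -0.16 for Eph and ephrin partners, -0.10 for plexin and neuropilin partners, -0.04 for co-receptors and other ligands, -0.02 for proteases and -0.15 for the netrin, Slit and repulsive guidance molecule families.

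**Figure D4:**
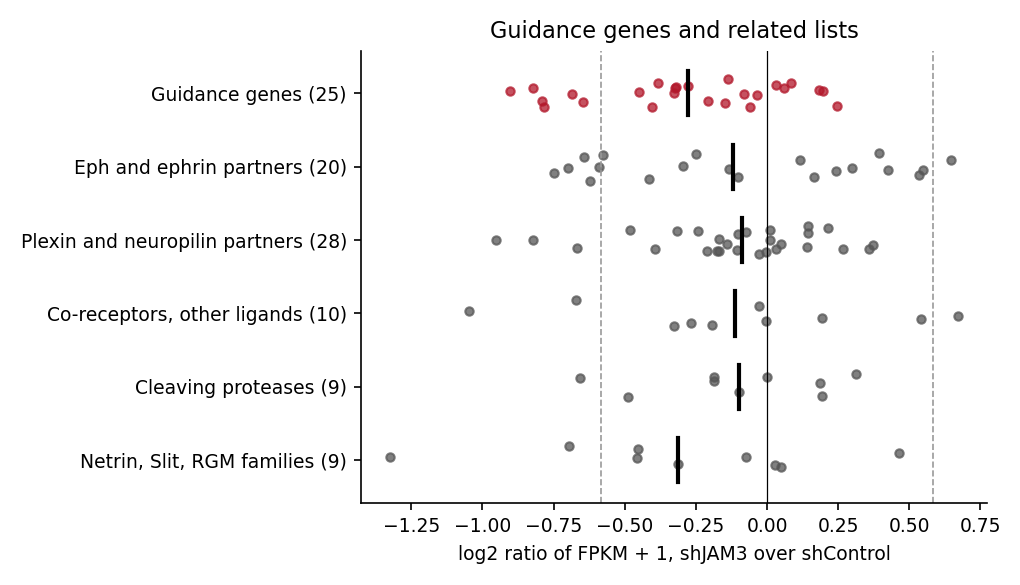
Log2 ratio of FPKM + 1, shJAM3 over shControl, for the measured guidance genes (25, top) and the measured genes of 5 related lists, 1 point a gene, with the number of genes in brackets, the median as a bar and dashed lines at 1.5-fold. No guidance gene lies past the upper dashed line, and NTN4 and VEGFA have the lowest values of the related lists.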

How the data were processed

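The authors deposited 1 table of FPKM for 58735 genes. Tools in the submitters' processing notes include HISAT2 2.0.5, fastp and featureCounts 1.5.0-p3, whose roles are not stated. Per the labels' protocols, mRNA was captured with oligo-dT, fragmented and copied with random hexamers, with no molecular identifiers described. No genome build is named in the sources used, but identifiers, symbols, coordinates and exon lengths of all 58735 genes equalled GENCODE 29 (GRCh38). The 53 genes and all lists were chosen with earlier results of these data known. FPKM times length gave whole fragments for 100% of values above 0 (tolerance 0.001 fragments), and the implied library sizes were 1.014 times (shJAM3) and 0.987 times (shControl) the fragment totals.

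From these values the log2 ratio of FPKM + 1, shJAM3 over shControl, was computed, with 1 row per symbol (1566 rows left out) and a filter of a mean of at least 1 FPKM. The added 1 understates differences of low genes. Calls were set at 1.5-fold, and intervals are conditional binomial (Clopper-Pearson, 95%) on recovered fragments. PCR copies and the spread between cultures are not covered by them. GC content came from GENCODE 29 transcripts, and centring subtracted the median of 20 GC groups. All measured members were named, with up to 4 measured genes per related list by absolute log2 ratio. List genes past 1.5-fold only after centring were named in addition, as were KDR, FLT1 and FLT4. The scripts were tested on simulated counts. Python 3.11.15, pandas 2.3.3 and scipy 1.17.1 were used.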

Additional observations from a re-analysis of the deposited data

How the results depend on the processing

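The count of 6 members lower by 1.5-fold was 5 to 6 with other filters on low values, with 2 further scalings, with a pseudocount of 0.1 FPKM and without members that overlap other genes, and was 2 after centring on GC content. No member was 1.5-fold higher under any of these. With a pseudocount of 0.1 FPKM, 1 member was lower by 2-fold, beside 0 in the values reported. The median over all members stayed between -0.32 and -0.12. The Eph receptor median of -0.68 was -0.0078 with no filter, -0.30 with at least 50 fragments and -0.37 after GC centring. The semaphorin median of -0.38 was -0.19 with no filter, -0.65 at a mean of at least 5 FPKM, -0.21 with at least 50 fragments and -0.14 after GC centring. The filters change which genes enter, and with a mean of at least 5 FPKM too few Eph receptors and ephrins were left for a median. After GC centring the ephrin median was 0.075 and the plexin median 0.0026, and PLXNB1 (0.25), SEMA3F (0.23), PLXNB2 (0.10), EFNB1 (0.075) and PLXND1 (0.016) turned above 0 and SEMA6D (-0.13) below 0. The cause of the GC relation was not tested. Log2 ratios of all 25 measured members kept their direction under the other pseudocount and scalings. No paired analysis was possible because each group holds 1 library. Without a second library the spread between cultures is unknown, and genes under about 50 fragments have wide intervals.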
